A study of Homo sapiens with 16 samples.

Results

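The 9 genes FOS, FOSB, FOSL1, FOSL2, JUN, JUNB, JUND, ATF3 and BATF3 encode subunits of the AP-1 transcription factor, and they were chosen by name out of 60448 gene identifiers. Their mRNA was measured by RNA-seq in 16 libraries of human lung adenocarcinoma cells, in 8 groups of 2 libraries. The study compared the established line A549 with A549/cDDP, a cisplatin-resistant line derived from it, and tested how A549/cDDP responds when the long noncoding RNA SCAT7 is depleted. A549 was given cisplatin or its solvent for 24 h, and so was untransfected A549/cDDP. The other 4 groups were A549/cDDP transfected with 12 pmol of a gapmer (an antisense oligonucleotide with locked nucleic acid ends that directs cleavage of its target RNA), either a control gapmer or 1 gapmer against SCAT7, and collected 48 h after transfection, with cisplatin or solvent over the last 24 h. The labels give the cisplatin concentration as 15 mM, which was not checked here, and state that medium with this concentration was also used to maintain A549/cDDP, so all A549/cDDP groups share this earlier exposure. They do not say whether A549/cDDP is 1 clone, whether the control gapmer has any target, or whether the libraries of a group came from separate cultures. P-values therefore measure only the spread between libraries, which may be technical.

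AP-1 is a dimer of basic leucine zipper proteins. JUN, JUNB and JUND can pair with themselves or with a partner from the FOS family (FOS, FOSB, FOSL1, FOSL2), whereas FOS proteins need a partner. ATF3 and BATF3 are related zipper proteins that join JUN proteins, and ATF3 often acts as a repressor. FOS, FOSB, JUN, JUNB and ATF3 are immediate early genes, transcribed within minutes of growth factor or stress signals that run through the MAP kinases, and their mRNAs are short-lived. FOSL1 and FOSL2 respond later and are held at high levels in many carcinoma cells. The FPKM values used below are corrected for the length of each gene and the size of each library, so levels can be compared between genes.

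Between 31350000 and 43140000 fragments per library were recovered from the low FPKM values, with the control gapmer libraries at 42300000 to 43140000 and the SCAT7 gapmer libraries at 31350000 to 33400000, so depth moved with the gapmer. All 9 genes passed the filter on low values (0.5 FPKM on average across the series), as did 17198 identifiers in all. CDKN1A, the cell cycle inhibitor p21, was at 84.2 ± 0.123 FPKM (SD, n = 2) in A549 in solvent and 1620 ± 17.7 in cisplatin. ELF3-AS1, for which RefSeq gives SCAT7 as a synonym, fell in solvent from 3.06 ± 0.716 FPKM (control gapmer) to 0.716 ± 0.171 (SCAT7 gapmer), and in cisplatin from 3.48 ± 0.351 to 1.93 ± 0.346. The 6 epithelial markers summed to 2300 to 4330 FPKM per library: KRT8, KRT18 and KRT19 were at 90.5 FPKM or more, while EPCAM, CDH1 and CLDN4 stayed between 0.584 and 14.5. Of 8 markers of other cell types, PTPRC, CD3E, HBB, VWF, PECAM1 and PDGFRB reached at most 0.339 FPKM in any library, CD14 reached 2.11, and COL1A1 ranged from 7.2 to 52.7. The sum of these 8 was 9.26 to 12.1 FPKM in the A549 libraries and 26.7 to 53.1 in the A549/cDDP libraries, and its part in the AP-1 differences between the lines was not tested.

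The cyclic AMP response element and its variants, read by JUN with ATF2 and by CREB and ATF proteins, are known control sequences of several of these genes. Of the 9 genes, 7 had a promoter entry in RefSeq (build GRCh38.p14), and the 250 bases before each start were searched on both strands. The 30 bases around the match are printed 5′ to 3′ on the gene's strand, with the match in capitals, for the 6 of these 7 genes that had a match.
FOS: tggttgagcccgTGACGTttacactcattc
FOSB: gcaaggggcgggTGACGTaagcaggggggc
FOSL2: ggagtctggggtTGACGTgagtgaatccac
JUND: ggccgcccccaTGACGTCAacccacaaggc
JUN: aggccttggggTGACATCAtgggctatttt
ATF3: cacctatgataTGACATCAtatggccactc
FOS (chr14:75278752-75278781, plus strand), FOSB (chr19:45467924-45467953, plus strand) and FOSL2 (chr2:28392780-28392809, plus strand) carried the core TGACGT 64 to 59, 60 to 55 and 66 to 61 bases before their starts. JUND (chr19:18281804-18281833, minus strand) carried the palindrome TGACGTCA, which holds the core on both strands, 200 to 193 bases before its start, and a further TGACGT on the opposite strand 87 to 82 bases before it. JUN (chr1:58784096-58784125, minus strand) and ATF3 (chr1:212565273-212565302, plus strand) carried the 1-base variant TGACATCA, 67 to 60 and 123 to 116 bases before their starts. The JUNB window held none of these 3 sequences. The FOSL2 and JUN matches lie before the RefSeq starts but inside the GENCODE genes, which begin further upstream. Among 35116 RefSeq windows of 250 bases, TGACGT was in 7.1%, TGACGTCA in 1.65% and TGACATCA in 2.37%. Neither the AP-1 element TGANTCA (6.57% of windows) nor the serum response element, searched as the CArG box (1.16%), was found in the windows of these 7 genes, which says only that these letters are not in these windows.

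The ATF3 promoter is shown at greater length because ATF3 had the largest log2 change of the 9 genes after cisplatin in A549 and with the SCAT7 gapmer in solvent. The 177 bases at chr1:212565157-212565333 (GRCh38.p14, plus strand) end just before the first base of the GENCODE gene, and the variant element is in capitals.
ATF3: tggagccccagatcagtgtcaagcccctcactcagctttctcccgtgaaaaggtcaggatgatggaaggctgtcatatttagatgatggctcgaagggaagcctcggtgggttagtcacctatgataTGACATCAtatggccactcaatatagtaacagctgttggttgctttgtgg
RefSeq lists another ATF3 start at position 212615018, whose window held a TATAAA box but none of the elements named above. FPKM per gene does not separate the starts.

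**Figure D1:**
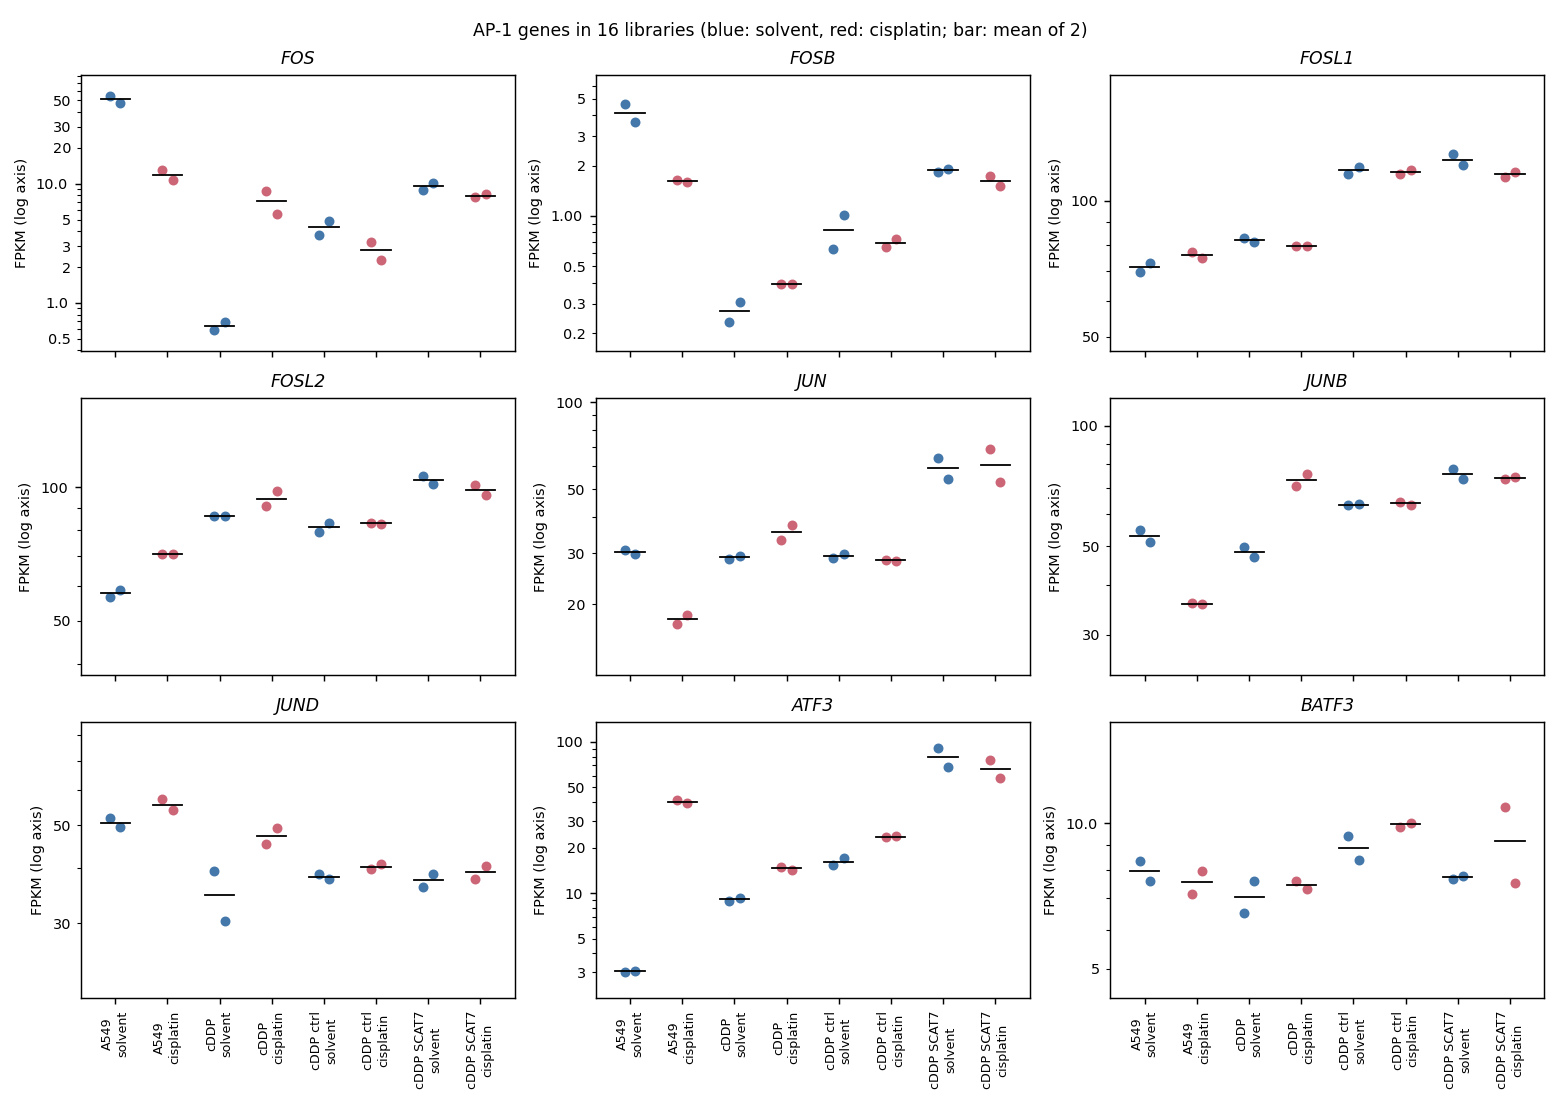
FPKM of the 9 AP-1 genes (log axis, 1 panel per gene with its own scale) in 8 groups. Points are the 2 libraries of a group, bars their mean, blue solvent and red cisplatin. FOS spans 0.593 to 54.8 FPKM and ATF3 3.03 to 90.7, whereas BATF3 stays between 6.51 and 10.8.

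FOSL1 and FOSL2 were the most abundant FOS family mRNAs in every group, at 69.8 to 127 and 56.7 to 106 FPKM over the 16 libraries. FOSB was the least abundant, at 0.234 to 4.66 FPKM, which is about 50 to 950 reads per library. FOS had the largest ratio of highest to lowest library of the 9 genes, from 0.593 FPKM (about 74 reads) to 54.8 (about 6500 reads). Among the JUN family, JUNB (35.8 to 78.1 FPKM) and JUND (30.4 to 57.2) lay above JUN (17.1 to 68.8) in the group means of all 8 groups except those with the SCAT7 gapmer, where JUN exceeded JUND.

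FOS made up 27.8% ± 2.38 of the summed FOS family FPKM in A549 in solvent (SD, n = 2), 7.4% ± 0.903 in A549 in cisplatin and 0.38% ± 0.0421 in A549/cDDP in solvent. The sums themselves were closer together, at 184 ± 2.29, 160 ± 3.26 and 169 ± 0.469 FPKM, because FOSL1 and FOSL2 make up most of them. In untransfected A549/cDDP in solvent FOSL1 held 48.5% ± 0.385 and FOSL2 51.0% ± 0.312 of the family. With either gapmer FOSL1 had a larger share than FOSL2, at between 51.5% and 57.6% in the 4 group means. The same order held in A549, at 38.7% against 31.3% in solvent and 47.4% against 44.2% in cisplatin. The JUN share of the JUN family was 16.2% ± 0.986 in A549 in cisplatin, 21.4% to 25.9% in the other 5 groups without the SCAT7 gapmer, and 34.2% ± 2.44 and 34.8% ± 4.75 with the SCAT7 gapmer in solvent and cisplatin.

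**Figure D2:**
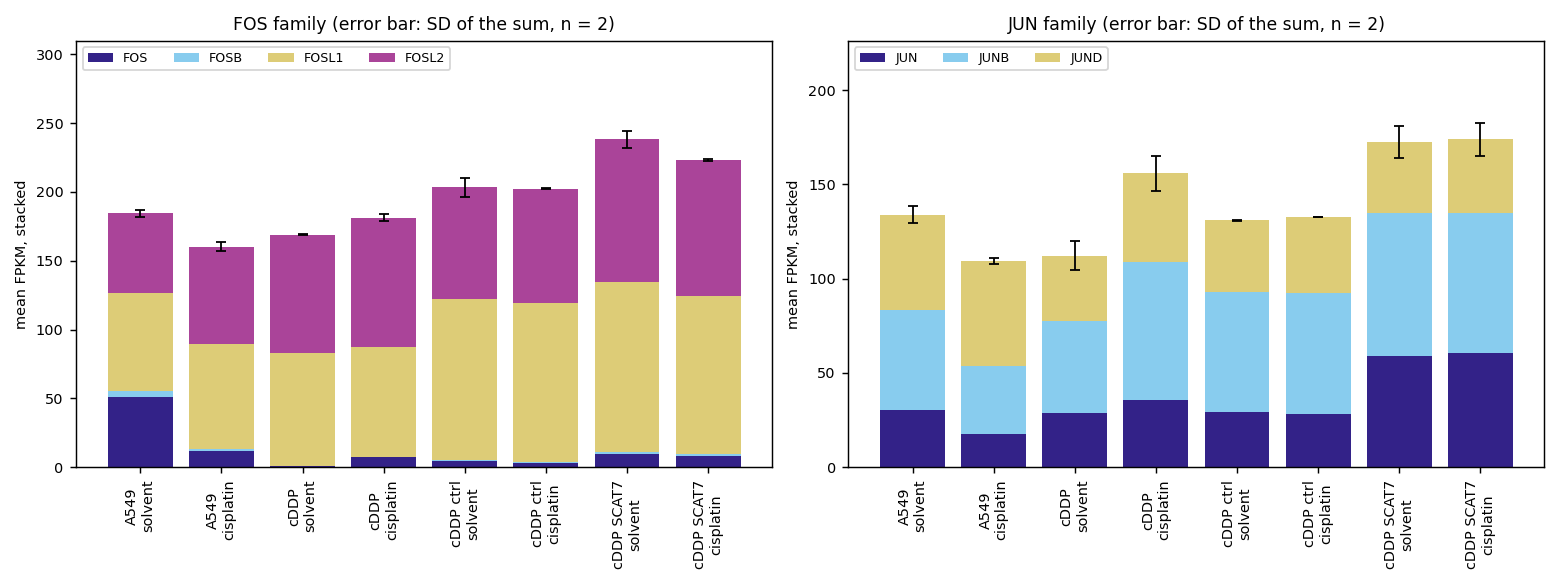
Stacked mean FPKM of the FOS family (left) and JUN family (right) in 8 groups, with error bars for the SD of the family sum over 2 libraries. FOS is a visible part of the stack in A549 in solvent (27.8%) and nearly absent in A549/cDDP in solvent (0.38%), and JUN takes 34.2% and 34.8% of its family with the SCAT7 gapmer.

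Of the 9 genes 3 lie over other genes, and the sources used here do not give a strand setting. FOSB (chromosome 19, 45467995 to 45475179, build hg38) lies within ERCC1 on the opposite strand and shares no exon with it, while ERCC1 was at 60.2 to 90.3 FPKM. JUNB (chromosome 19, 12791496 to 12793315) lies within HOOK2 on the opposite strand, and 14.2% of its exon bases are also HOOK2 exon. HOOK2 was at 15.5 to 37.7 FPKM. FOSL2 (chromosome 2, 28392448 to 28417312) overlaps FOSL2-AS1 on the opposite strand, which was at 0.028 to 1.59 FPKM, and ENSG00000270640 on its own strand, which was at 0.306 to 1.41 FPKM. FOSL2 shares no exon base with either. Reads in the exon bases shared by JUNB and HOOK2 cannot be told apart here, and the part of unspliced reads of the other overlapping genes was not tested. The remaining 6 genes overlapped no other gene of the deposited table that has a GENCODE model: FOS lies on chromosome 14 (75278774 to 75282230, plus strand), JUN on chromosome 1 (58780788 to 58784327, minus strand), JUND on chromosome 19 (18279760 to 18281622, minus strand) and FOSL1 on chromosome 11 (65892049 to 65900573, minus strand). ATF3 (212565334 to 212620777, plus strand) and BATF3 (212686418 to 212699985, minus strand) are 65.6 kb apart on chromosome 1.

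FOS was far lower in the resistant line in solvent, and ATF3 was higher there. FOS read 54.8 and 47.7 FPKM in the A549 libraries against 0.593 and 0.692 in A549/cDDP, a 79.7-fold lower mean. The groups did not overlap, and the log2 change on the scale log2(FPKM + 0.5), used for every change below, was -5.50 (SE 0.19, limma adjusted p = 1.32e-10). FOSB, the closest relative of FOS, was at 4.66 and 3.63 FPKM in A549 and 0.234 and 0.308 in A549/cDDP (-2.58, SE 0.15, limma adjusted p = 1.35e-08). ATF3 went the other way, from 3.03 and 3.06 FPKM in A549 to 8.92 and 9.33 in A549/cDDP, which is 3.0-fold (1.44, SE 0.12, limma adjusted p = 4.76e-07). FOSL2 was higher as well, at 86.0 and 86.4 against 56.7 and 58.6 FPKM (0.58, SE 0.04). In all, 7 of the 9 genes passed the threshold of an adjusted p of 0.05 between the lines in solvent, 3 higher and 4 lower. Of all tested genes 70.2% did, with 42.7% higher and 27.5% lower. With median ratio scaling 2 of the 9 were higher and 5 lower.

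The median of all genes was itself at 0.15 in this comparison and fell to 0.02 with median ratio scaling, so small changes between the lines depend on the scale. FOSL1 was 0.20 higher (limma adjusted p = 0.000381) but only 0.04 with median ratio scaling, where its adjusted p was 0.309. JUND was lower (-0.55, limma adjusted p = 0.000167), with 39.3 and 30.4 FPKM in A549/cDDP against 51.8 and 49.6 in A549. JUNB was lower (-0.13, limma adjusted p = 0.0209), a call that ended without the first A549 library (adjusted p = 0.193) or the second A549/cDDP library (adjusted p = 0.163). JUN read 30.7 and 29.8 FPKM in A549 and 28.6 and 29.4 in A549/cDDP (-0.06, 95% interval -0.29 to 0.17), and BATF3 also did not pass.

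Cisplatin lowered the FOS and JUN mRNAs of A549 and raised ATF3. ATF3 read 3.03 and 3.06 FPKM in solvent and 41.1 and 39.4 in cisplatin, 13.2-fold higher (3.52, SE 0.12, limma adjusted p = 1.58e-10). FOS fell from 54.8 and 47.7 FPKM to 13.1 and 10.7, 4.32-fold lower (-2.07, SE 0.19, limma adjusted p = 1.21e-06). The 2 cisplatin libraries lay below both solvent libraries for FOS and above both for ATF3. FOSB fell from 4.66 and 3.63 to 1.65 and 1.59 FPKM (-1.12, limma adjusted p = 3.63e-05). JUN fell from 30.7 and 29.8 to 17.1 and 18.3 FPKM (-0.76, limma adjusted p = 4.72e-05), and JUNB from 54.8 and 51.3 to 36.1 and 35.8 (-0.55, limma adjusted p = 3.39e-07). The late-responding FOSL2 rose from 56.7 and 58.6 to 70.7 and 70.9 FPKM (0.29, SE 0.04). FOSL1 (0.09, 95% interval 0.01 to 0.17, limma adjusted p = 0.0586), JUND (0.13, -0.07 to 0.33) and BATF3 (-0.07, -0.36 to 0.22) did not pass. Of the 9 genes 2 rose and 4 fell, and of all tested genes 60.4% passed, with 33.3% higher and 27.1% lower. With median ratio scaling more of all genes were lower than higher.

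In untransfected A549/cDDP cisplatin raised FOS, from 0.593 and 0.692 FPKM to 8.66 and 5.56, which is 11.1-fold (2.71, SE 0.19, limma adjusted p = 5.69e-05). The cisplatin libraries did not overlap the solvent libraries and stayed below those of A549 in cisplatin. JUNB rose from 49.7 and 47.1 to 70.7 and 75.5 FPKM (0.59, SE 0.05, limma adjusted p = 7.77e-05). ATF3 rose from 8.92 and 9.33 to 15.0 and 14.2 FPKM (0.65, SE 0.12, limma adjusted p = 0.00798), and this call ended without the first solvent library (0.62, adjusted p = 0.0614). JUND passed as well (0.45, limma adjusted p = 0.0111), but its solvent libraries were at 39.3 and 30.4 FPKM against 45.3 and 49.3 in cisplatin. Without the second solvent library the JUND change was 0.26 (adjusted p = 0.0631), and without the second cisplatin library it was 0.39 (adjusted p = 0.102). JUN read 28.6 and 29.4 FPKM in solvent and 33.3 and 37.7 in cisplatin, groups that did not overlap, and did not pass (0.28, 95% interval 0.05 to 0.52, limma adjusted p = 0.136). FOSB read 0.234 and 0.308 FPKM in solvent and 0.391 and 0.392 in cisplatin, groups that did not overlap, a ratio of 1.45. It did not pass (0.21, limma adjusted p = 0.471), on a scale that understates changes of low genes. FOSL1, FOSL2 and BATF3 did not pass either. All 4 genes called were higher, where 8.1% of tested genes passed in either direction and 3.55% were higher.

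**Figure D3:**
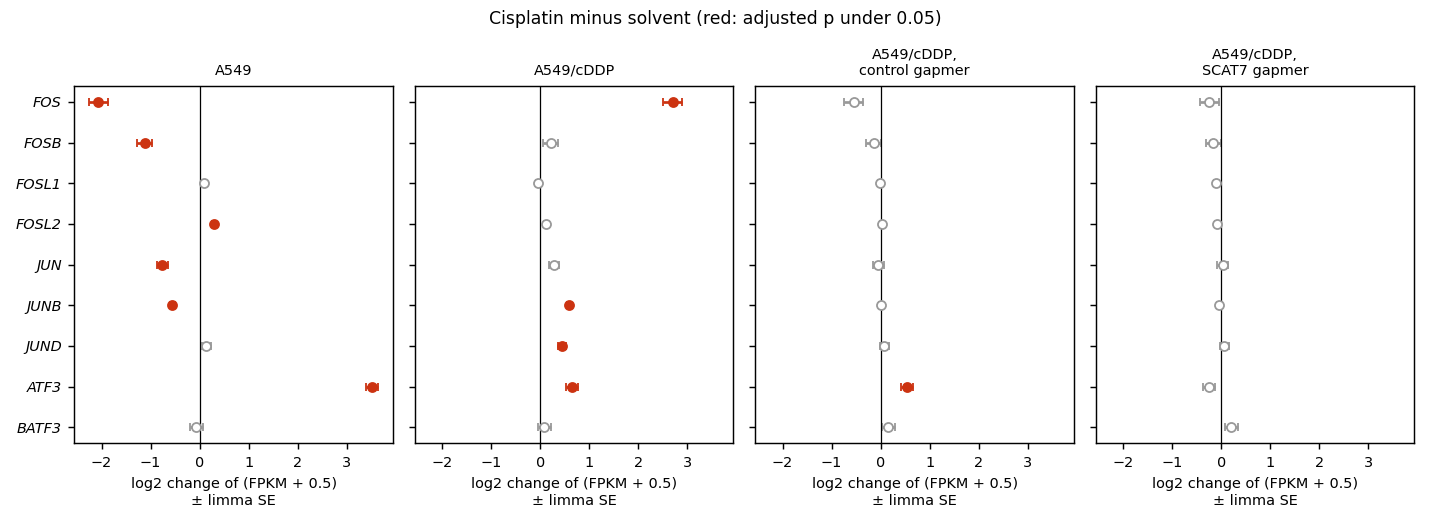
Log2 change of FPKM + 0.5 between cisplatin and solvent for the 9 AP-1 genes in A549, untransfected A549/cDDP, and A549/cDDP with the control or SCAT7 gapmer. Points show the fitted change, bars ± 1 limma SE, filled red an adjusted p under 0.05. FOS is at -2.07 in A549 and 2.71 in A549/cDDP, and no gene is filled with the SCAT7 gapmer.

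The cisplatin effect itself differed between the lines for 6 of the 9 genes, 4 with a positive and 2 with a negative difference. Of tested genes 47% passed, 21.5% positive and 25.6% negative, an order that turned with either other scaling. With median ratio scaling or quantile normalization 5 of the 9 were positive and 1 negative. The difference, A549/cDDP minus A549, was 4.78 for FOS (SE 0.27, limma adjusted p = 3.83e-08), 1.34 for FOSB, 1.14 for JUNB and 1.04 for JUN. ATF3 had the opposite sign, at -2.87 (SE 0.18, limma adjusted p = 6.95e-08). FOSL2 passed at -0.17 (limma adjusted p = 0.0318), a call that ended when any of 6 single libraries was left out, and with no filter (adjusted p = 0.0624), quantile normalization (0.0956) or median ratio scaling (-0.10, adjusted p = 0.173). Both lines started from different solvent levels, so these are differences in fold and not in level. A549/cDDP had also been maintained in medium with cisplatin, and the part of this earlier exposure was not tested. In cisplatin, FOS was still lower in A549/cDDP than in A549 (-0.72, limma adjusted p = 0.0053). That call ended without the first A549 library in cisplatin (-0.58, adjusted p = 0.0514) or the second A549/cDDP library in cisplatin (-0.43, adjusted p = 0.0762).

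Among cells in cisplatin 7 of the 9 genes passed between the lines, 3 higher and 4 lower in A549/cDDP. Of tested genes 66.5% passed, 37% higher and 29.5% lower, and with median ratio scaling more were lower than higher. With quantile normalization 4 of the 9 were higher and 3 lower. JUNB (1.01) and JUN (0.98) were each close to 2-fold higher, at ratios of 2.03 and 2.01, and FOSL2 was 0.41 higher. ATF3 (-1.43) and FOSB (-1.25) were lower. JUND was lower as well (-0.23, limma adjusted p = 0.0386), and that call ended in 3 of the 4 fits that left out 1 library.

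Transfection with the control gapmer went with higher FOS in solvent. FOS read 3.75 and 4.85 FPKM with the control gapmer against 0.593 and 0.692 in untransfected A549/cDDP, 6.69-fold higher (2.06, SE 0.19, limma adjusted p = 5.17e-06). ATF3 was at 15.4 and 17.1 against 8.92 and 9.33 FPKM (0.80), and FOSB at 0.638 and 1.01 against 0.234 and 0.308 (0.77). FOSL1, a FOS relative, was at 115 and 119 against 82.6 and 81.3 FPKM (0.51, SE 0.04, limma adjusted p = 5.75e-07), and JUNB was 0.39 higher. These 5 genes were all higher, where 39.7% of tested genes passed and 20.7% were higher, and with quantile normalization 1 gene was also called lower. The groups differ by the transfection reagent and the gapmer together, and these cannot be told apart.

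In cisplatin the same contrast had FOS lower, at 3.27 and 2.31 FPKM with the control gapmer against 8.66 and 5.56 without (-1.19, SE 0.19, limma adjusted p = 0.000336). FOSL1 (0.54) and ATF3 (0.68) were higher, as in solvent, and FOSL2 was lower (-0.18). In all 8 of 9 genes passed, 4 in each direction, and 42.4% of tested genes did, 23% higher and 19.4% lower. Median ratio scaling made this 3 higher and 5 lower. Quantile normalization made it 2 and 5. JUNB was lower (-0.19, limma adjusted p = 0.00449), but not without the second untransfected cisplatin library (-0.14, adjusted p = 0.0516). The calls for FOSB (0.42, limma adjusted p = 0.0441), BATF3 (0.39, adjusted p = 0.0317) and JUN (-0.31, adjusted p = 0.0319) ended with no filter on low values, at adjusted p of 0.113, 0.0922 and 0.0997. FOSB also ended with the replicate number as a block, at an adjusted p of 0.0557. Without the second untransfected cisplatin library 4 genes passed, and 5 did without either control gapmer library in cisplatin.

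The rise of FOS after cisplatin seen in untransfected A549/cDDP was not seen with the control gapmer, where FOS read 3.75 and 4.85 FPKM in solvent and 3.27 and 2.31 in cisplatin (-0.55, 95% interval -0.97 to -0.13, limma adjusted p = 0.196). The difference of the cisplatin effects, control gapmer minus untransfected, was -3.26 for FOS (SE 0.27, limma adjusted p = 0.000223) and -0.58 for JUNB (SE 0.06, limma adjusted p = 0.00107). These 2 of 9 genes passed, both lower, where 1.88% of tested genes did and 0.738% were lower, and this comparison was added after the values were seen. With the control gapmer ATF3 was the 1 gene of 9 called after cisplatin, where 2.53% of tested genes were and 1.67% were higher. ATF3 went from 15.4 and 17.1 to 23.4 and 23.9 FPKM (0.53, limma adjusted p = 0.0471). That call ended when any 1 of the 4 libraries was left out, and with a pseudocount of 1, no filter, median ratio scaling or quantile normalization, at adjusted p between 0.0503 and 0.255, although the ATF3 groups did not overlap.

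Cells given the SCAT7 gapmer held ATF3 and JUN at their highest levels of the 8 groups. ATF3 read 90.7 and 68.4 FPKM in solvent against 15.4 and 17.1 with the control gapmer, 4.9-fold higher (2.25, SE 0.12, limma adjusted p = 2.56e-08). JUN read 64.2 and 54.1 against 28.9 and 29.8 FPKM, 2.01-fold higher (0.99, SE 0.11, limma adjusted p = 7.23e-06). FOS read 8.86 and 10.2 against 3.75 and 4.85 FPKM, 2.22-fold higher (1.07, SE 0.19, limma adjusted p = 0.00048). None of these pairs of groups overlapped. FOSB read 1.83 and 1.91 against 0.638 and 1.01 FPKM (0.85, limma adjusted p = 0.000457). FOSL2 (0.36) and JUNB (0.26) were higher by less, at means of 104 against 81.2 and 75.9 against 63.4 FPKM. FOSL1 (0.07, 95% interval -0.01 to 0.15), JUND (-0.03, -0.23 to 0.17) and BATF3 (-0.19, -0.48 to 0.1) did not pass. The 6 genes called were all higher, where 55.8% of tested genes passed and 33.2% were higher.

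The cells in cisplatin gave the same comparison a second set of libraries. ATF3 read 75.6 and 57.9 FPKM with the SCAT7 gapmer against 23.4 and 23.9 with the control gapmer (1.46, SE 0.12, limma adjusted p = 1.68e-06). JUN read 68.8 and 52.8 against 28.5 and 28.3 FPKM (1.07, limma adjusted p = 5.96e-06), and FOS 7.76 and 8.16 against 3.27 and 2.31 (1.38, limma adjusted p = 9.08e-05). FOSB was 0.83 higher, FOSL2 0.25 and JUNB 0.21. Again 6 of 9 genes were called, all higher, where 49.7% of tested genes passed and 28.6% were higher. Against untransfected A549/cDDP in cisplatin, the control gapmer itself had lower FOS, JUN, JUNB and FOSL2, as given above. FOS, JUNB and FOSL2 averaged 7.96, 74.0 and 98.5 FPKM with the SCAT7 gapmer and 7.11, 73.1 and 94.3 in untransfected cells, with overlapping libraries. JUN (60.8 against 35.5), ATF3 (66.7 against 14.6) and FOSB (1.62 against 0.392) did not overlap. This contrast was not tested. The depth difference between the gapmers noted above runs through both comparisons of the SCAT7 and control gapmers, and its part was not tested. Only 1 gapmer against SCAT7 was used, so loss of SCAT7 and other effects of that gapmer cannot be told apart.

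**Figure D4:**
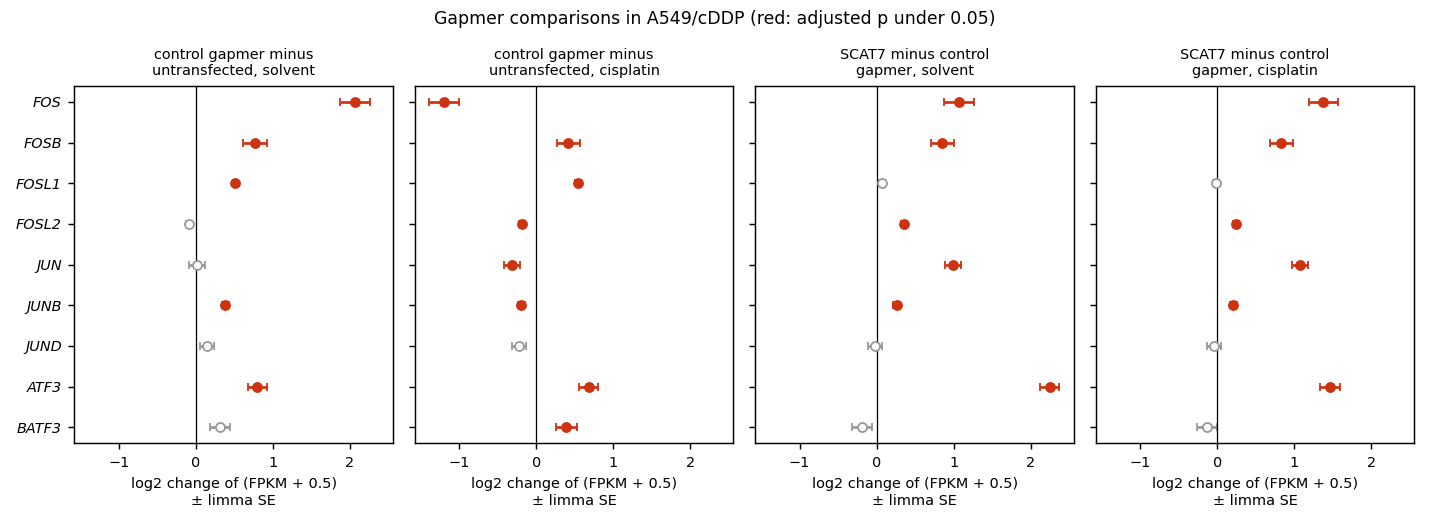
Log2 change of FPKM + 0.5 for the 9 AP-1 genes between the control gapmer and untransfected A549/cDDP, and between the SCAT7 and control gapmers, each in solvent and in cisplatin. Points show the fitted change, bars ± 1 limma SE, filled red an adjusted p under 0.05. FOS is at 2.06 and -1.19 for the control gapmer and at 1.07 and 1.38 for the SCAT7 gapmer.

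No AP-1 gene was called after cisplatin in cells with the SCAT7 gapmer (limma, 1 of 9 at an unadjusted p under 0.05, 4.18% of tested genes called). CDKN1A did not pass there either (0.09, limma adjusted p = 0.0862). FOS was at 8.86 and 10.2 FPKM in solvent and 7.76 and 8.16 in cisplatin (-0.24, 95% interval -0.66 to 0.18), and ATF3 at 90.7 and 68.4 against 75.6 and 57.9, groups that overlapped (-0.25, -0.52 to 0.02). BATF3 was called in 1 fit, without the second SCAT7 gapmer library in cisplatin (0.46, limma adjusted p = 0.0201). FOSL1 was called with quantile normalization (-0.14, limma adjusted p = 0.0461).

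The cisplatin effect was not shown to differ between the gapmers for any of the 9 genes (limma, 1 of 9 at an unadjusted p under 0.05, 0.93% of tested genes called). ATF3 was the closest, at -0.78 for SCAT7 minus control gapmer (95% interval -1.17 to -0.4, limma adjusted p = 0.0645). It was called at -0.98 without the second SCAT7 gapmer library in solvent (adjusted p = 0.0149) and at -0.97 without the first in cisplatin (adjusted p = 0.0166). For FOS the difference was 0.31 (95% interval -0.29 to 0.9) and for JUN 0.08 (-0.25 to 0.41), which leaves room for differences of those sizes.

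Put in order of their means, the groups differ by gene. FOS ran from A549 in solvent (51.2 FPKM) through A549 in cisplatin (11.9), the SCAT7 gapmer in solvent (9.53) and in cisplatin (7.96), untransfected A549/cDDP in cisplatin (7.11), the control gapmer in solvent (4.3) and in cisplatin (2.79) to untransfected A549/cDDP in solvent (0.643). Of these neighbours only the SCAT7 gapmer in cisplatin and untransfected A549/cDDP in cisplatin overlapped in their libraries. ATF3 had A549 in solvent at the bottom (3.04 FPKM) and the SCAT7 gapmer groups at the top (79.6 and 66.7), with A549 in cisplatin next (40.2), and only the top pair of groups overlapped. JUN split into the SCAT7 gapmer groups (60.8 and 59.1 FPKM), 5 groups between 28.4 and 35.5, and A549 in cisplatin (17.7). BATF3 had group means of 7.04 to 9.94 FPKM, and 6 of its 7 neighbouring pairs overlapped.

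Other zipper proteins that pair with AP-1 subunits were followed as a list of 16 genes, 14 of them tested. With the SCAT7 gapmer 12 of the 14 were higher and none lower in solvent, with a median change of 0.43 against 0.06 over all tested genes. In cisplatin 10 were higher and none lower (0.37 against 0.04). Of all tested genes 33.2% were higher in solvent and 28.6% in cisplatin. DDIT3, which encodes the stress-induced zipper protein CHOP, read 84.5 and 69.0 FPKM with the SCAT7 gapmer against 22.9 and 21.9 with the control gapmer in solvent (1.75, limma adjusted p = 7.35e-08). MAFF, a small MAF protein, read 16.9 and 13.2 against 6.25 and 5.96 FPKM (1.22), and BATF2, an interferon-responsive BATF relative, 54.5 and 32.7 against 15.5 and 21.0 (1.21). BATF2 was already higher with the control gapmer than in untransfected A549/cDDP, where it read 2.05 and 1.99 FPKM (2.88, limma adjusted p = 1.47e-06).

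In A549 cisplatin raised 6 of the 14 partners and lowered 3 (5 with median ratio scaling or quantile normalization). Of all tested genes 33.3% were higher and 27.1% lower in that comparison. DDIT3 went from 4.71 and 4.78 to 82.8 and 83.7 FPKM (a log2 change of 4.0, limma adjusted p = 2.17e-11). In untransfected A549/cDDP 7 of 14 were higher and none lower after cisplatin, with a median of 0.18 against 0 over all genes, of which 3.55% were higher. DDIT3 was 0.53 higher there (limma adjusted p = 0.0112), and the difference of its cisplatin effects between the lines was -3.46 (limma adjusted p = 5.64e-09). JDP2, a JUN-binding repressor, was 0.51 higher (limma adjusted p = 0.00369). With the control gapmer 1 of 14 passed after cisplatin and with the SCAT7 gapmer none did, although 5 were at an unadjusted p under 0.05 in limma with the SCAT7 gapmer and 2 were called lower with quantile normalization. The shares over all tested genes were 2.53% and 4.18%.

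The MAP kinases and their scaffolds, which carry signals to AP-1 by phosphorylation, were a list of 24 genes, all tested. After cisplatin 9 were higher and 9 lower in A549, where 60.4% of all tested genes passed. Median ratio scaling gave 8 higher and 11 lower, quantile normalization 7 and 10. MAPK11 (1.34) and RPS6KA1 (1.33) were among the higher and the stress kinase MAP3K5 (-1.04) among the lower. In untransfected A549/cDDP none of the 24 was called after cisplatin (limma, 12 at an unadjusted p under 0.05), with a median change of -0.02 against 0 over all genes. The share of all tested genes called there was 8.1%. The p38 kinases MAPK11 (2.40), MAPK13 (1.67) and MAPK12 (1.55) were higher in A549/cDDP than in A549 in solvent, where 11 of the 24 were higher and 7 lower, a balance that turned with median ratio scaling (9 higher and 13 lower). Of all tested genes 70.2% passed there. In solvent 6 were higher and 6 lower with the SCAT7 gapmer, with a median of -0.01, where 55.8% of all tested genes passed.

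SRF and the ternary complex factors ELK1, ELK3 and ELK4, which bind the serum response element of FOS, belong to a list of 7 genes. None of the 7 was called after cisplatin in untransfected A549/cDDP (limma, 3 at an unadjusted p under 0.05, 8.1% of tested genes called). SRF was at 10.9 and 11.1 FPKM there in solvent and 10.9 and 12.4 in cisplatin. In A549 SRF (0.42) and ELK3 (0.46) were higher and ELK1 (-0.21) and ELK4 (-0.21) lower after cisplatin. All 7 passed between the lines in solvent, 4 higher and 3 lower, where 70.2% of all tested genes passed, but with median ratio scaling 1 was higher and 3 lower. The SCAT7 gapmer in solvent had 2 higher and 2 lower, where 55.8% of all tested genes passed, and 1 and 3 with median ratio scaling.

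Other immediate early genes were a list of 19, of which 17 were tested. Between the lines in solvent 2 were higher and 12 lower in A549/cDDP, with a median of -0.47 against 0.15 over all genes, of which 42.7% were higher and 27.5% lower. EGR1, a zinc finger factor induced through the same serum response factors as FOS, read 23.2 and 18.8 FPKM in A549 and 0.395 and 0.393 in A549/cDDP (-4.58, limma adjusted p = 5.44e-10). EGR1 fell after cisplatin in A549 (-1.78) and rose in untransfected A549/cDDP to 3.83 and 2.99 FPKM (2.12, limma adjusted p = 0.000133). Its difference of cisplatin effects was 3.90 between the lines and -2.28 for the control gapmer minus untransfected, the signs found for FOS. EGR1 with the SCAT7 gapmer was at 17.9 and 17.3 FPKM in solvent against 3.58 and 5.48 with the control gapmer (1.87, limma adjusted p = 4.46e-06).

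BTG2, an immediate early gene that p53 also induces, and ARC did not follow FOS. BTG2 read 6.5 and 6.88 FPKM in A549 in solvent and 128 and 130 in cisplatin (4.17, limma adjusted p = 4.92e-14), and 32.7 and 33.3 in untransfected A549/cDDP in solvent. ARC rose in A549 from 0.504 and 0.559 FPKM to 15.9 and 15.3 after cisplatin (3.96, limma adjusted p = 1.45e-09). Its difference of cisplatin effects between the lines was -3.48. In A549 after cisplatin, 7 of the 17 genes were higher and 8 lower (6 and 8 with median ratio scaling), where 33.3% and 27.1% of all tested genes were. In untransfected A549/cDDP 8 were higher and none lower, where 3.55% of all tested genes were higher. With the control gapmer against untransfected cells in solvent 12 of the 17 genes were higher and 2 lower, with a median of 0.47 against -0.01 over all genes, of which 20.7% were higher. With the SCAT7 gapmer in solvent 10 were higher and 4 lower (0.22 against 0.06, with 33.2% of all genes higher), KLF4 (1.11) and ZFP36 (0.96) among the higher.

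Genes commonly listed as AP-1 targets were a list of 27, of which 23 were tested. With the SCAT7 gapmer in solvent 18 were higher and 2 lower, with a median of 0.46 against 0.06 over all genes, and in cisplatin 16 were higher and 2 lower (0.31 against 0.04). The shares of all tested genes called higher were 33.2% and 28.6%. The interleukin gene IL6 read 62.5 and 47.7 FPKM with the SCAT7 gapmer against 17.3 and 20.4 with the control gapmer in solvent (1.51, limma adjusted p = 1.97e-06). CXCL8, which encodes a neutrophil chemokine, read 520 and 493 against 216 and 230 FPKM (1.18, limma adjusted p = 1.2e-07). HBEGF (0.97), a ligand of the EGF receptor, and the matrix protease gene MMP9 (0.95) were higher as well.

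Between the lines in solvent 17 of the 23 targets were higher and 5 lower in A549/cDDP, with a median of 1.05 against 0.15, where 42.7% of all genes were higher and 27.5% lower. FOS itself was 79.7-fold lower there. MMP9 was at 18.3 and 16.1 FPKM in A549/cDDP against 0.105 and 0.158 in A549 (4.81), and IL6 at 12.0 and 11.0 against 0.191 and 0.132 (4.19). The targets did not share 1 direction after cisplatin in A549, where 10 were higher and 9 lower, and 9 and 10 with median ratio scaling, while 60.4% of all tested genes passed. CXCL8 rose from 25.3 and 25.9 to 106 FPKM in both libraries (2.03), and IL11, which encodes a cytokine of the IL6 family, fell from 46.3 and 46.7 to 3.87 and 3.78 (-3.44, limma adjusted p = 6.36e-13). In untransfected A549/cDDP 5 targets were higher and 1 lower after cisplatin, with a median of 0.07 against 0 over all genes, of which 3.55% were higher. LAMA3 was the 1 lower (-0.55, limma adjusted p = 0.000594) and had the largest change of those named. MMP9 (0.45), IL11 (0.40) and PLAUR, the urokinase receptor gene (0.40, limma adjusted p = 0.00433), were among the higher.

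**Figure D5:**
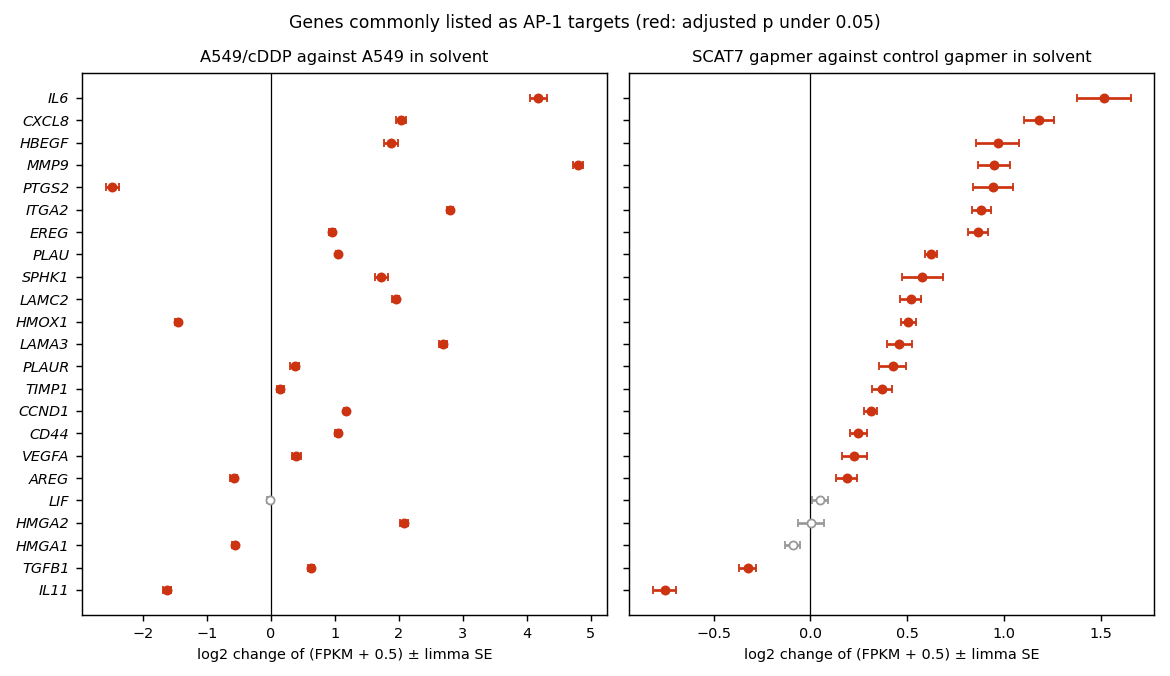
Log2 change of FPKM + 0.5 for the 23 tested genes of the AP-1 target list, between A549/cDDP and A549 in solvent (left) and between the SCAT7 and control gapmers in solvent (right), ordered by the right panel. Points show the fitted change, bars ± 1 limma SE, filled red an adjusted p under 0.05. On the left 17 are higher and 5 lower, and on the right 18 are higher and 2 lower.

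Across the 16 libraries, which share 8 groups and are not 16 independent conditions, the AP-1 genes did not move as 1 set. On the log2(FPKM + 0.5) scale Pearson's r was 0.89 between FOS and FOSB and 0.84 between JUN and JUNB, but 0.05 between FOS and JUN and -0.14 between FOS and ATF3. Among 14915 genes that averaged 1 FPKM or more, the patterns most like ATF3 were those of CCDC174 (0.983), DDIT3 (0.974) and TICAM1 (0.972). The patterns most like FOSL1 were those of PARP9 (0.994), MX1 (0.993) and KLK10 (0.993). MX1 encodes an interferon-induced antiviral protein. FOS was most like GALC (0.936), SLC38A1 (0.931) and STRN (0.913), and JUN most like ENSG00000223544, ARHGAP21 and PLAA (0.971, 0.969 and 0.966).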

How the data were processed

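RNA-seq of 16 libraries, 8 groups of 2 taken from the labels, was used. The deposited values are FPKM for 60448 gene identifiers. Per the submitters' processing notes, TopHat2 and HTSeq 0.6.1 were the authors' tools and hg38 the build. Neither a strand setting nor an annotation release is given in the sources used here. Symbols, positions and exon lengths came from GENCODE release 29 (hg38), which held 56868 of the identifiers, and promoter sequences from RefSeq (GRCh38.p14, 7 of 9 genes; FOSL1 and BATF3 had no entry).

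Depth was recovered from low FPKM values, which are multiples of the value of 1 read. Of these values 71.7% to 77.3% per library were whole within 0.02 reads, so read numbers are approximate. Genes averaging 0.5 FPKM or more (17198) were fitted on log2(FPKM + 0.5) with limma 3.58.1 (R 4.3.3), 1 mean per group, a trended prior and 8 residual degrees of freedom. Tests were two-sided with Benjamini-Hochberg adjustment over these genes and a threshold of 0.05. A log2 change on this scale understates the change of low genes. Rose, fell, higher and lower describe genes past the threshold. Of 13 comparisons 1 was added after the values were seen. Comparisons that share groups are not independent. The fit was checked on simulated data.

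The 9 genes and the 5 lists set beside them were chosen with earlier results of these data known, and 2 genes of the target and marker lists were later left out and are not reported here. From each list and comparison, called genes with the largest changes and at least 1 FPKM in the higher group were named, up to 4, with the SRF levels in A549/cDDP added after they were seen. For FOS, JUN, FOSL1 and ATF3 the 3 most similar patterns were named. Alternatives were pseudocounts of 0.1 and 1, no filter, median ratio scaling, quantile normalization, a replicate block, a fit of only the compared libraries, and leaving out each library. Differential splicing and start sites were not analysed here.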

Additional observations from a re-analysis of the deposited data

Results flagged for a closer look

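The cisplatin effect differed between A549/cDDP and A549, by the test of the difference itself, for FOS (4.78), FOSB (1.34), JUNB (1.14), JUN (1.04), FOSL2 (-0.17) and ATF3 (-2.87), as log2 values of A549/cDDP minus A549. The FOSL2 call ended when any of 6 single libraries was left out, and with no filter, median ratio scaling or quantile normalization. For FOS and JUNB the effects have opposite signs in the lines and pass the threshold in both, at -2.07 and 2.71 for FOS and -0.55 and 0.59 for JUNB. For ATF3 both effects are positive, at 3.52 and 0.65, and the difference is in size. FOSB and JUN fell in A549 and did not pass in A549/cDDP. The cisplatin effect also differed between A549/cDDP with the control gapmer and without transfection for FOS (-3.26) and JUNB (-0.58), where the untransfected solvent libraries hold the lowest FOS of the series (0.593 and 0.692 FPKM).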

How the results depend on the processing

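Of the 117 values for 9 genes in 13 comparisons, 117 kept their direction and side of the threshold with a pseudocount of 0.1, 115 with a pseudocount of 1, 111 with no filter, 106 with median ratio scaling, 102 with quantile normalization and 113 when only the compared libraries were fitted. Nothing shows that replicate numbers pair the libraries: over 28 pairs of groups the replicate differences correlated at -0.19 to 0.12. With the replicate number as a block 116 of 117 kept their call, and FOSB for the control gapmer against untransfected cells in cisplatin was lost (0.42).

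After cisplatin with the control gapmer 1 gene was called, and 0 with a pseudocount of 1, no filter, median ratio scaling or quantile normalization, or when any library was left out (0 to 0). With the SCAT7 gapmer 0 were called, 1 with quantile normalization, and 0 to 1 with a library left out. The control gapmer against untransfected cells in cisplatin gave 8 calls, 5 with no filter and 4 to 6 with a library left out. The difference between the gapmers gave 0, and 0 to 1 with a library left out. A fit without 1 library leaves a group of 1, assumed to vary like the others.

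Signs turned only for values that did not pass the threshold. With median ratio scaling these were JUNB after cisplatin with the control gapmer (-0.02), FOSL1 between the lines in cisplatin (-0.02), JUND for the difference between gapmers (0.01) and FOSL1 for the added comparison (-0.01). With quantile normalization they were JUNB after cisplatin with the control gapmer (-0.01), FOSL1 for the SCAT7 gapmer in cisplatin (0.01), FOSB for the difference between gapmers (0.08) and JUN for the control gapmer in solvent (-0.04). With a library left out 15 values turned. BATF3 ranged from -0.09 to 0.06 between the lines in cisplatin, -0.02 to 0.18 after cisplatin in A549/cDDP, -0.04 to 0.46 after cisplatin with the SCAT7 gapmer, -0.38 to 0.12 for the SCAT7 gapmer in cisplatin, -0.19 to 0.31 for the difference between gapmers and -0.03 to 0.18 for the added comparison. JUND ranged from -0.08 to 0.02 and -0.09 to 0.01 for the SCAT7 gapmer in solvent and cisplatin, -0.04 to 0.33 for the control gapmer in solvent and -0.06 to 0.04 for the difference between gapmers. JUN ranged from -0.16 to 0.22 after cisplatin with the SCAT7 gapmer and -0.11 to 0.27 for the difference between gapmers. FOSB (-0.35 to 0.07) and FOSL1 (-0.04 to 0.01) turned after cisplatin with the control gapmer, and FOSB (-0.23 to 0.19) for the difference between gapmers. The cause was not tested.

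Scaling moved the split of all calls. Between the lines in solvent 7338 were higher and 4737 lower, and 5982 and 6050 with median ratio scaling. The same scaling turned 288 and 147 into 190 and 171 after cisplatin with the control gapmer, 502 and 217 into 300 and 221 with the SCAT7 gapmer, and 197 and 127 into 132 and 181 for the added comparison. It also changed which side held more calls after cisplatin in A549 (5729 and 4664 to 5062 and 5328), for the difference between lines (3692 and 4396 to 4322 and 3823), between the lines in cisplatin (6363 and 5074 to 5570 and 5882) and for the control gapmer in cisplatin (3956 and 3333 to 3498 and 3726). Quantile normalization gave 5670 and 5821 between the lines in solvent, 481 and 329 after cisplatin with the SCAT7 gapmer and 3248 and 4158 for the control gapmer in cisplatin. FOSB, at about 50 to 950 reads, is the gene most limited by depth.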
